A study of Homo sapiens with 24 samples.

Results

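DNA replication and mismatch repair were followed through 50 genes in xenografts of 3 human breast cancer cell lines grown in diabetic or control mice. The genes were chosen by symbol and function from the 17798 genes examined. By role they comprised 15 genes of helicase loading (the ORC and MCM families, CDC6 and CDT1), 5 partners of the active helicase (CDC45 and the GINS subunits), 6 genes of the sliding clamp and its loader (PCNA and the RFC family), 9 polymerase and primase subunits, 3 subunits of replication protein A, 3 genes of Okazaki fragment maturation (FEN1, LIG1 and DNA2), 6 mismatch repair genes (MSH3, MSH6, MLH3, PMS1, PMS2 and EXO1) and 3 enzymes of deoxynucleotide supply (RRM1, RRM2 and TYMS). All 50 genes passed the expression filter in each of the 8 comparisons.

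Replication begins when the origin recognition complex, helped by CDC6 and CDT1, loads rings of MCM proteins onto DNA during the G1 phase. CDC45 and the GINS complex then convert the rings into an active helicase, polymerase alpha with primase starts each strand, and polymerases delta and epsilon extend it on the PCNA clamp. Mismatch repair follows the fork: MSH proteins recognize mispaired bases, MLH and PMS proteins direct the cut, and EXO1 removes the strand that carries the error. Most of these genes are transcribed in proliferating cells under the control of E2F factors.

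The cell lines were Hs578T, MDA-MB-468 and MDA-MB-231, all labelled estrogen receptor negative. For each line 4 tumors from diabetic and 4 from control hosts were sequenced, 1 tumor per mouse, giving 24 tumors. The study injected 6 mice per group. In each control group 5 of 6 formed tumors, and 5 tumor-bearing Akita mice were sacrificed early because their health failed. Control hosts were NOD.Cg-Rag1tm1Mom Il2rgtm1Wjl/SzJ mice, and diabetic hosts were NOD.Cg-Rag1tm1Mom Ins2Akita Il2rgtm1Wjl/SzJ mice (NRG-Akita). Both strains therefore carried the Rag1 and Il2rg mutations and lacked mature B, T and NK cells, and the diabetic strain added 1 mutant copy of Ins2, whose misfolded insulin kills pancreatic β cells and raises blood glucose from 4 weeks of age. Cells were placed in an abdominal mammary fat pad on 1 side at 8 weeks of age. Tumors grew for 5, 6 or 8 weeks depending on the line, so line and growth time cannot be told apart, and each tumor type stands for 1 established line in an immunodeficient host.

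Expression was given as CPM, read counts scaled to library sizes adjusted by the trimmed mean of M values (TMM), and differences were taken on log2(CPM + 1). Library depths inferred from the spacing of low values ranged from 9013083 to 15145424 reads, at which 3 reads corresponded to 0.185 to 0.364 CPM. The lowest value of any member in any tumor was 2.67 CPM and the highest was 627 CPM, so none was near that floor. Libraries grouped by line, with a smallest correlation within a line of 0.931 and a largest between lines of 0.705. The epithelial marker EPCAM averaged 633 CPM in control-host MDA-MB-468 tumors but 0.17 CPM in Hs578T tumors, in which the defining epithelial marker was therefore nearly absent and COL1A1, a fibroblast collagen, averaged 12810 CPM. ESR1, the estrogen receptor gene, averaged 4.79 CPM in MDA-MB-468 and no more than 0.25 CPM in the other lines. Tumor 4 of the diabetic MDA-MB-468 group stood apart, with 19.95% of its CPM on mitochondrial genes against 2.59 to 3.93% in the control tumors of that line. Values without it are given beside some of the results it moved.

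**Figure D1:**
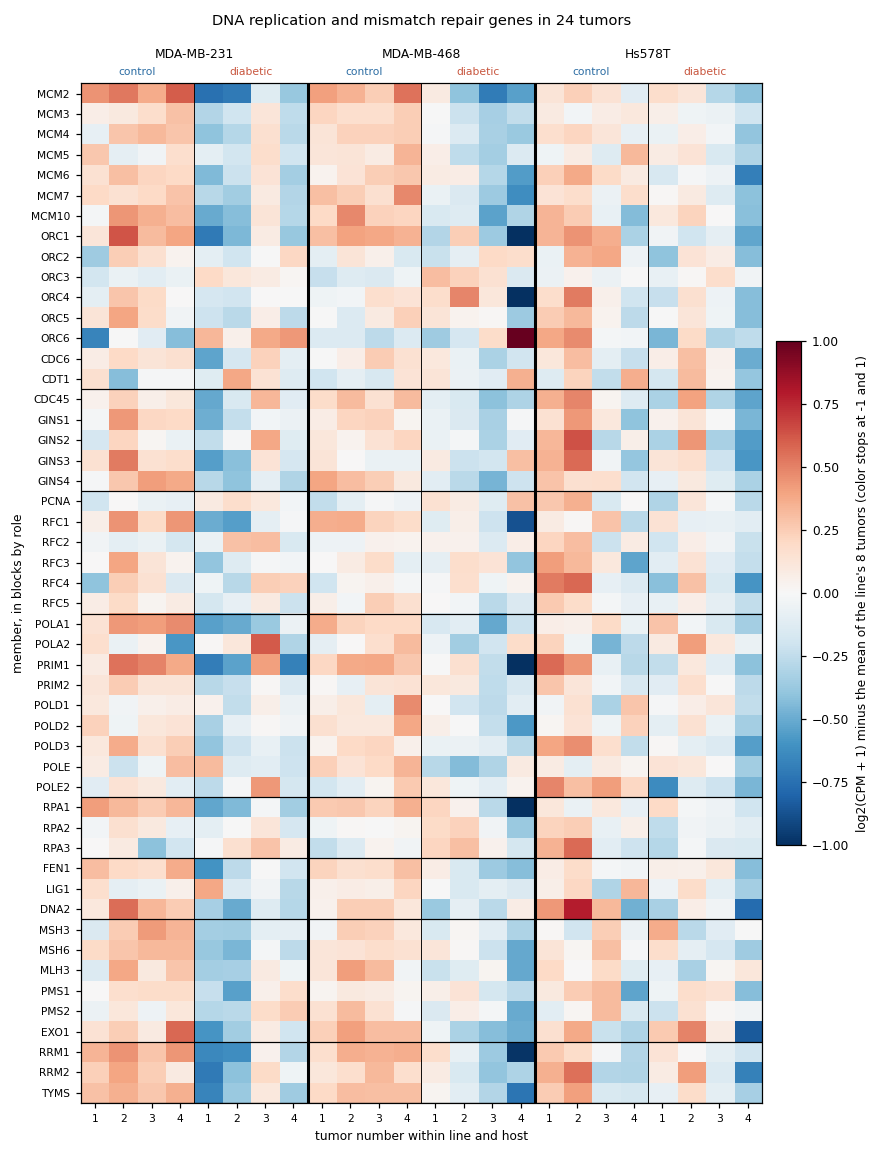
Each row is one of the 50 genes, grouped by role, and each column is a tumor; color is log2(CPM + 1) minus the mean of that line's 8 tumors, and stops at -1 and 1. In the MDA-MB lines most rows are lower in the diabetic than in the control columns, and in Hs578T the difference is smaller and uneven between tumors.

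In control hosts PCNA and TYMS, thymidylate synthase, were among the most abundant members per kilobase of transcript in every line. PCNA stood at 374 ± 25.8 CPM per kb in MDA-MB-468, at 136 ± 7.96 in MDA-MB-231 and at 143 ± 23.2 in Hs578T (SD, n = 4). In Hs578T, POLD2, an accessory subunit of polymerase delta, was listed first at 147 ± 12.6 CPM per kb, which did not differ from PCNA beyond their spread. At the low end MLH3, a mismatch repair gene of the MutL family, reached only 0.947 ± 0.150, 1.37 ± 0.229 and 1.27 ± 0.147 CPM per kb in the same order of lines. POLA2, the second subunit of polymerase alpha, was scarce in MDA-MB-231 at 1.67 ± 0.404 CPM per kb, but not in the other lines.

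The first question was how the replication genes differed between diabetic and control hosts within each line. In MDA-MB-231 tumors from diabetic mice much of the replication machinery was lower: 24 of the 50 genes fell, compared with 17% of all 14722 genes tested, and 1 rose, compared with 16.1%. The genes that fell took in every role, from the helicase (MCM2, MCM3, MCM4, MCM6 and MCM7) and primase (PRIM1 and PRIM2) to mismatch repair (MSH3, MSH6 and EXO1) and nucleotide supply (RRM1, RRM2 and TYMS). ORC6, the smallest origin recognition subunit, was the one that rose. The median log2 difference of the members was -0.31, against 0.0016 over all genes, and 41 of the 50 were below 0. At an adjusted P under 0.3, the wider threshold of the study, 32 were lower and 5 higher, beside 31.3% and 30.6% of genes. The RNA came from whole tumors, in which fewer cycling cancer cells and less RNA per cell cannot be told apart. The values of the 4 diabetic and 4 control tumors did not overlap for 19 members in the lower direction, beside 16.2% of all genes, and for 2 in the higher direction, beside 15.6%.

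Other properties of the libraries moved with the host in this line, and skeletal muscle markers summed to 0.0618 to 5.27 CPM in control and 0.356 to 43.8 CPM in diabetic tumors. Mitochondrial genes took 0.908 to 1.86% of CPM in control tumors and 1.96 to 5.69% in diabetic ones, and with that share as a covariate none of the members was called, nor was any of the 14722 genes. The shares did not overlap between hosts, so that covariate could not be separated from host. Without moderation of the variance 14 members were called, and 15 were called without control tumor 2 or without diabetic tumor 1 and 16 without diabetic tumor 2. Transcript length also moved with the host: across genes the host difference correlated with transcript length at rho = -0.506, and across the members at -0.287, where genes are not independent replicates. With length and GC trends removed 19 members were called, and 26 with the muscle sum as a covariate.

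In MDA-MB-468 fewer members passed the test, and those that did were all lower. A group of 10 of the 50 genes, beside 5.13% of the 15250 genes tested, fell in diabetic hosts, and none rose, beside 3.11%. They were EXO1, the helicase subunits MCM2, MCM3, MCM4 and MCM7, the helicase activators CDC45, GINS4 and MCM10, and the catalytic subunits POLA1 and POLE. The median log2 difference was -0.29, against -0.015 over all genes, with 40 members below 0. At an adjusted P under 0.3, 33 were lower and 2 higher, beside 23.3% and 18.6%. Diabetic and control values did not overlap for 24 members in the lower direction, beside 12.7% of genes, and for none in the higher, beside 8.98%.

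These calls rested on few tumors. None of the members was called when any 1 control tumor or diabetic tumor 3 was left out, 1 was called without diabetic tumor 2 and 14 without diabetic tumor 1, and 21 were called without diabetic tumor 4, the library with the highest mitochondrial share. Without that tumor the median was -0.26, with 40 members below 0, and 20 of the 50 differences moved by over 1.5 times or turned sign, 6 of them turning. The count was 4 after length and GC trends were removed, 4 without variance moderation, 1 with the summed skeletal muscle markers as a covariate and 16 in a fit over all 24 tumors. That muscle sum was 19.1 to 33.9 CPM in control and 34.1 to 54.99 CPM in diabetic tumors, with 11 of its 12 genes examined and MB, myoglobin, averaging 19.4 and 29.1 CPM. The sums did not overlap between hosts, so the muscle covariate could not be separated from host. Mitochondrial genes took 2.68 to 19.95% in the diabetic tumors, 11 members were called with that share as a covariate, and the host difference correlated with transcript length at rho = -0.451 across genes and -0.356 across members.

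In Hs578T no member passed the test in either direction, beside 0.00687% of the 14557 genes tested that were lower and 0.0275% that were higher, 5 in all. At an unadjusted P under 0.05 the limma test called 4 members (POLE2, MCM6, ORC6 and ORC1), all lower in diabetic hosts, and 1664 genes (11.4%). The median log2 difference was -0.17, against -0.013 over all genes, and 48 of the 50 members were below 0. Only POLE2 and MCM6 separated the hosts without overlap, both lower, beside 3.24% of genes, and none was higher without overlap, beside 3.04%. At an adjusted P under 0.3 POLE2 was lower, beside 0.783%, and none was higher, beside 1.14%. In the fit over all 24 tumors, which shares 1 estimate of the spread, POLE2 alone was called, with an adjusted P of 0.017. Skeletal muscle markers summed to 1.40 to 14.03 CPM in control and 26.7 to 154 CPM in diabetic tumors of this line, with MYH7, a slow muscle myosin, called higher and MB at 0 in all 4 diabetic tumors. With that sum as a covariate no member was called, but its ranges did not overlap between hosts, so it could not be separated from host. The host difference correlated with transcript length at rho = 0.339 across genes and 0.384 across members.

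**Figure D2:**
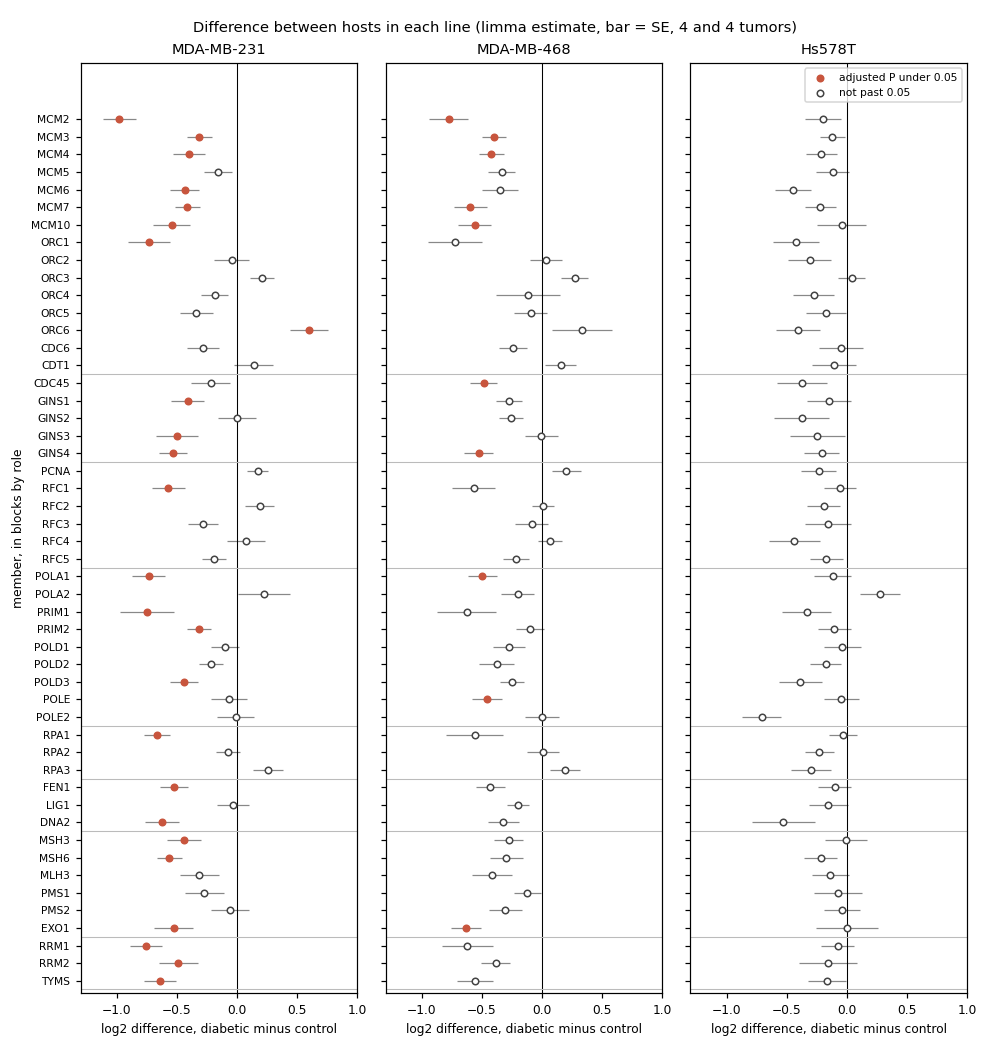
Points are the diabetic minus control log2 difference of each gene in each line with its standard error, grouped by role, and filled points passed an adjusted P under 0.05. Most points lie below 0 in all 3 lines, while ORC3 lies above 0 in each.

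The tumors of the 3 lines are separate sets, so the lines could be set side by side. In all 3 of them the log2 difference was below 0 for 38 of the 50 members (76%), compared with 2373 of 12371 genes (19.2%). Some of these were close to 0 in Hs578T, such as EXO1 (-0.00029) and MSH3 (-0.0067). ORC3 was the only member higher in all 3 (2%, beside 13.3% of genes). The 8 genes called lower within each MDA-MB line were EXO1, GINS4, MCM10, MCM2, MCM3, MCM4, MCM7 and POLA1, which is 33.3% of the 24 and 80% of the 10. Over all genes tested in every line 485 of 12371 (3.92%) were called lower in both, which is 21.1% and 69.1% of those called lower in each line. Averaged over the lines, 28 members were lower, beside 12.2% of the 17679 genes tested, and ORC3 was higher, beside 10.2%. With the mitochondrial share as a covariate 7 members were called in this average, 1 higher and 6 lower.

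Promoters of 5 members are shown because they move differently. MCM2 fell in each MDA-MB line. MCM6 and POLE2 were lower in every diabetic Hs578T tumor without being called within that line, and MCM6 also fell in MDA-MB-231. ORC6 rose in MDA-MB-231, and RPA1 fell there without a match to the motif searched. Sequences are from RefSeq (GRCh38.p14) and run 5′ to 3′ on the gene's strand from 250 bases before to 50 after the annotated start. Capitals mark TTTNNCGC on either strand, a loose form of the E2F element in which N is any base, so a marked stretch need not be an E2F site.
MCM2, chr3:127598161-127598460, plus strand: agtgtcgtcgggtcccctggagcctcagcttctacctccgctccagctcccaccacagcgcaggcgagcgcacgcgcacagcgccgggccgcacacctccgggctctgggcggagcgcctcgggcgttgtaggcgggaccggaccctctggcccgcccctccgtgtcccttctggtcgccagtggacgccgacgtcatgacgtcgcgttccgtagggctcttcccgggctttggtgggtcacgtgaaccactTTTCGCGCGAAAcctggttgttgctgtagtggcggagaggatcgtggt
MCM6, chr2:135876394-135876693, minus strand: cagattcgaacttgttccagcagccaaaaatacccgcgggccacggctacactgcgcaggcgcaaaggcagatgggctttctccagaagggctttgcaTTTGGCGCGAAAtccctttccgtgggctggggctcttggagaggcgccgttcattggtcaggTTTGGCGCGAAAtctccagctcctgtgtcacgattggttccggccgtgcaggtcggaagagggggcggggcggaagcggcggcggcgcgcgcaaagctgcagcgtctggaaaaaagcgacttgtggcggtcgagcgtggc
POLE2, chr14:49688165-49688464, minus strand: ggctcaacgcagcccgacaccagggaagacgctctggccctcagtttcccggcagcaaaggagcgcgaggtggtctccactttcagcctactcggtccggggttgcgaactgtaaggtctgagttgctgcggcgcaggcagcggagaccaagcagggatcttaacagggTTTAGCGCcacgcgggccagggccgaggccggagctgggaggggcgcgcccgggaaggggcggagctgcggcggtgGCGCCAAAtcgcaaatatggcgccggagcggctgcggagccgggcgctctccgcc
ORC6, chr16:46689409-46689708, plus strand: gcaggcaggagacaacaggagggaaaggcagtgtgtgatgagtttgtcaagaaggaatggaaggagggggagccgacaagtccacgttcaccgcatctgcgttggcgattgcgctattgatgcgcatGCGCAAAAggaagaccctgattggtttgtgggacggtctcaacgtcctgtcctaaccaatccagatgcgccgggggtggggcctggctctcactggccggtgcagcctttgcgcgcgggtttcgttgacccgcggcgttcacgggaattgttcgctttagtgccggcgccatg
RPA1, chr17:1829755-1830054, plus strand: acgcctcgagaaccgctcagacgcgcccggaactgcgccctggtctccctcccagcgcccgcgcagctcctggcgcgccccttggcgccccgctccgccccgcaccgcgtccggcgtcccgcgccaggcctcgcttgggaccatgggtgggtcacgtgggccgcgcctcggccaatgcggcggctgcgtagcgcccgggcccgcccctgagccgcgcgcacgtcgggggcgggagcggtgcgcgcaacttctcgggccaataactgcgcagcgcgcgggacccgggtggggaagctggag

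A promoter window was matched by symbol for 43 of the 50 members. TTTNNCGC, searched on both strands, was present in 25 of the 43 (58.1%), compared with 12.3% of the 12006 listed genes with a window, counting a gene once if any of its windows held the motif. Of all 35116 windows 6.89% held it, and of the members' 57 windows 27 did. TTTGAA, a form of the cell cycle homology region of late cell cycle genes, was present in 1 of the 43 (RRM1; 2.33%), compared with 14.2%. CCAAT was present in 25 of the 43 (58.1%), compared with 42.5%. Members with and without TTTNNCGC were compared for their host difference. In MDA-MB-231 the median log2 difference was -0.28 with it, where 12 of 25 fell, and -0.32 without it, where 8 of 18 fell. Of all genes 17% fell in that line. The medians with and without it were -0.27 and -0.38 in MDA-MB-468. There 6 of 25 fell with it and 2 of 18 without it, beside 5.13% of all genes. The Hs578T medians were -0.15 and -0.16, with no member called. A match describes the letters in the window and not binding.

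Of the 50 members MCM2 had the most negative host difference in each MDA-MB line. MCM2, a subunit of the helicase ring, read 53.3, 56.3, 50.3 and 59.6 CPM in control and 22.6, 23.3, 35.5 and 29.6 CPM in diabetic MDA-MB-231 tumors. It read 105, 99.6, 93.2 and 114 CPM in control and 83.2, 59.04, 47.9 and 53.5 CPM in diabetic MDA-MB-468 tumors. In Hs578T the corresponding values were 99.4, 107, 101 and 83.9 CPM and 103, 99.04, 74.5 and 67.9 CPM. The hosts did not overlap in the MDA-MB lines and overlapped in Hs578T. MCM2 fell in MDA-MB-231 (log2 difference -0.98, SE 0.14, adjusted P = 0.000547). It also fell in the MDA-MB-468 tumors (log2 difference -0.78, SE 0.16, adjusted P = 0.0269), while Hs578T gave -0.20 with an adjusted P of 0.600. Without diabetic tumor 4 the MDA-MB-468 difference was -0.72, and the call there held in 2 of 8 fits that left out 1 tumor.

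Other ring subunits fell as well. In MDA-MB-231 the log2 differences of those that fell were MCM3 (-0.31), MCM4 (-0.40), MCM6 (-0.43) and MCM7 (-0.41), and MCM5 gave -0.16 with an adjusted P of 0.316. In MDA-MB-468, MCM3 (-0.40), MCM4 (-0.42) and MCM7 (-0.59) fell. MCM6 was the ring subunit that stood out in Hs578T, with 114, 126, 111 and 103 CPM in control and 86.5, 96.2, 93.5 and 60.02 CPM in diabetic hosts. Its groups did not overlap there, and the test gave log2 difference -0.45, SE 0.15, adjusted P = 0.341. MCM10, which helps to activate the loaded helicase, had log2 differences of -0.54 and -0.56 in the MDA-MB lines, and passed the test in both.

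Origin recognition genes were mixed. ORC6 rose in MDA-MB-231, from 9.65, 15.7, 14.6 and 11.5 CPM in control to 20.2, 16.4, 20.8 and 21.7 CPM in diabetic tumors (log2 difference 0.60, SE 0.16, adjusted P = 0.0122). The MDA-MB-468 tumors held 13.9, 13.9, 12.6 and 13.9 CPM in control and 11.7, 13.6, 17.6 and 31.8 CPM in diabetic hosts, with tumor 4 highest (log2 difference 0.33, SE 0.25, adjusted P = 0.414). Without tumor 4 that difference was 0.05 (adjusted P = 0.810). Hs578T went the other way, with 19.03, 20.3, 14.1 and 14.002 CPM and 10.1, 16.5, 11.5 and 11.9 CPM, and the difference of -0.41 did not pass the test. The hosts were separated without overlap in MDA-MB-231, where every diabetic value lay above every control value. ORC3 was higher in diabetic hosts by small amounts, with 28.5, 30.9, 30.1 and 30.9 CPM against 37.4, 35.1, 34.4 and 32.8 CPM in MDA-MB-231. The MDA-MB-468 values were 48.5, 52.2, 51.4 and 55.5 CPM against 70.7, 67.1, 63.6 and 51.5 CPM, and the Hs578T values 30.1, 32.5, 30.1 and 31.3 CPM against 29.7, 31.7, 35.6 and 30.7 CPM. The hosts did not overlap for ORC3 in MDA-MB-231 and overlapped in the other lines. Without diabetic tumor 4 ORC3 passed in MDA-MB-468, at 0.37 with an adjusted P of 0.0088. With all tumors it was not called within any line (adjusted P = 0.117, 0.155 and 0.921) and was called on average (log2 difference 0.17, SE 0.05, adjusted P = 0.0236).

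ORC1, the ATPase subunit that is made in G1, fell in MDA-MB-231 from 14.7 ± 2.32 to 8.59 ± 2.29 CPM (SD, n = 4; log2 difference -0.73, SE 0.18, adjusted P = 0.00762). In MDA-MB-468 it gave -0.72 and was not called, and it passed at -0.50 (adjusted P = 0.0208) without diabetic tumor 4. ORC2, ORC4 and ORC5 gave log2 differences of -0.05, -0.18 and -0.34 in MDA-MB-231 and were not called in any line. The loading factors CDC6 and CDT1 gave -0.28 and 0.14 in MDA-MB-231, -0.05 and -0.10 among Hs578T tumors, and -0.24 and 0.16 in MDA-MB-468, none of which passed the test. Without diabetic tumor 4 the last of these was 0.07. Of the 15 loading genes, 5 fell in MDA-MB-468, beside 5.13% of all genes. In MDA-MB-231, 7 fell and 1 rose, beside 17% of all genes lower and 16.1% higher.

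**Figure D3:**
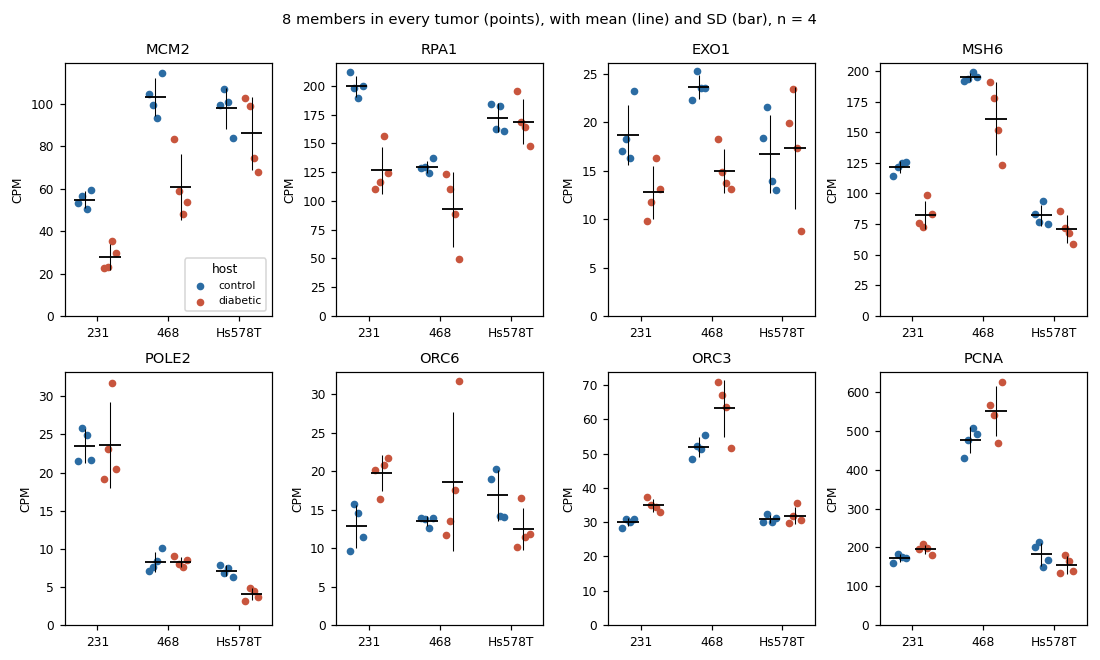
CPM of 8 members in every tumor (points; blue, control hosts; red, diabetic hosts), with the group mean as a line and the SD as a bar. MCM2 is lower in every diabetic than in every control tumor of the MDA-MB lines, ORC6 is higher in every diabetic tumor of MDA-MB-231, and POLE2 separates the hosts in Hs578T.

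Among the partners of the active helicase, GINS4 read 38.3, 46.7, 51.8 and 50.4 CPM in control and 31.6, 28.9, 36.1 and 31.1 CPM in diabetic MDA-MB-231 tumors. Its values were 27.04, 25.4, 24.3 and 21.8 CPM and 18.8, 16.7, 14.4 and 17.4 CPM in MDA-MB-468, then 38.9, 35.5, 35.8 and 27.7 CPM and 29.9, 34.1, 29.02 and 25.3 CPM for Hs578T. GINS4 fell in the MDA-MB lines (log2 difference -0.53, adjusted P = 0.00493, and -0.52, adjusted P = 0.0343), without overlap of the hosts, and its Hs578T values overlapped. GINS1 (-0.41) and GINS3 (-0.50) also fell in MDA-MB-231, where GINS2 (0.00) and CDC45 (-0.22) were not called. CDC45, the helicase cofactor, fell in MDA-MB-468 (log2 difference -0.48, SE 0.11, adjusted P = 0.0338).

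Of the 6 genes of the clamp and its loader 1 fell in MDA-MB-231, beside 17% of all genes. It was RFC1, the large loader subunit (log2 difference -0.57, SE 0.14, adjusted P = 0.00796). With all tumors none of the 6 was called in the other lines. RFC1 gave -0.57 in MDA-MB-468 as well (adjusted P = 0.0764). Without the diabetic tumor of highest mitochondrial share RFC1 passed in that line, at -0.37 (adjusted P = 0.0128). PCNA, the clamp that tethers polymerases to DNA, averaged 173 ± 10.2 CPM in control and 195 ± 11.6 CPM in diabetic MDA-MB-231 tumors (log2 difference 0.17, SE 0.09, adjusted P = 0.142). In MDA-MB-468 it read 431, 477, 507 and 493 CPM in control and 568, 541, 470.3 and 627 CPM in diabetic hosts, with overlap, and a difference of 0.20 (adjusted P = 0.293). In MDA-MB-231, RFC2, RFC3, RFC4 and RFC5 gave 0.19, -0.28, 0.08 and -0.19.

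Of the 9 polymerase and primase subunits 2 fell in MDA-MB-468, beside 5.13% of all genes, and 4 in MDA-MB-231, beside 17%. POLA1, the catalytic subunit that extends primers, went from 23.6 ± 2.399 to 13.8 ± 2.39 CPM in MDA-MB-231 (log2 difference -0.74, SE 0.14, adjusted P = 0.00209). The MDA-MB-468 means were 28.5 ± 1.78 and 20.05 ± 2.4997 CPM (log2 difference -0.49, SE 0.12, adjusted P = 0.0378). The primase subunits PRIM1 (-0.75) and PRIM2 (-0.32) and the polymerase delta subunit POLD3 (-0.44) fell in MDA-MB-231. PRIM1 shares 10.9% and 4.2% of its exon bases with same-strand neighbors, so its reads may be split. POLE, the catalytic subunit of polymerase epsilon, fell in MDA-MB-468 (log2 difference -0.46, SE 0.12, adjusted P = 0.0488) and gave -0.07 in MDA-MB-231. POLD1 and POLD2, the catalytic and an accessory subunit of polymerase delta, were not called in any line.

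POLE2, an accessory subunit of polymerase epsilon, showed the lowest P value of any member in Hs578T. There it read 7.91, 6.86, 7.51 and 6.35 CPM in control and 3.12, 4.83, 4.51 and 3.64 CPM in diabetic tumors, all diabetic values being lower (log2 difference -0.71, SE 0.16, adjusted P = 0.172). In MDA-MB-468 it read 7.14, 7.61, 8.45 and 10.1 CPM and 9.04, 8.004, 7.59 and 8.498 CPM, and the MDA-MB-231 values were 21.5, 25.8, 24.95 and 21.6 CPM and 19.2, 23.1, 31.7 and 20.5 CPM. Those hosts overlapped, with adjusted P = 0.998 and 0.963. POLA2 had the highest log2 difference of the Hs578T members, at 40.2, 33.3, 24.6 and 28.6 CPM in control and 36.7, 46.4, 37.1 and 32.8 CPM in diabetic tumors, which overlapped (log2 difference 0.28, SE 0.16, adjusted P = 0.520). Part of its exon sequence, 16.8%, lies under another same-strand gene.

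RPA1, the large subunit of the protein that coats single-stranded DNA, read 212, 199, 189 and 199.6 CPM in control and 109.96, 116, 156 and 124 CPM in diabetic MDA-MB-231 tumors, without overlap. It fell (log2 difference -0.66, SE 0.11, adjusted P = 0.00105), whereas RPA2 and RPA3 gave -0.07 and 0.26 and were not called. In fragment maturation FEN1, the flap endonuclease (-0.52, adjusted P = 0.00555), and DNA2, a nuclease and helicase (-0.62, adjusted P = 0.00572), fell in MDA-MB-231. LIG1, the ligase that seals the fragments, gave -0.20, -0.03 and -0.15 in MDA-MB-468, MDA-MB-231 and Hs578T and was not called. None of these 6 genes was called in MDA-MB-468, where RPA1 averaged 129.8 ± 5.27 CPM in control and 92.9 ± 32.6 CPM in diabetic tumors (log2 difference -0.56), or 107 ± 17.9 CPM (-0.28) without diabetic tumor 4. FEN1 and DNA2 gave -0.43 and -0.32 in that line. Without the same tumor they passed, at -0.36 (adjusted P = 0.0230) and -0.40 (0.0243).

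Mismatch repair genes fell in part. Of the 6, 3 were called lower in MDA-MB-231, beside 17% of all genes, and 1 in MDA-MB-468, beside 5.13%. With length and GC trends removed 1 was called lower in each of these lines. MSH6, which recognizes single mispairs, read 114, 121, 125 and 125 CPM in control and 76.3, 72.3, 98.4 and 83.2 CPM in diabetic MDA-MB-231 tumors, without overlap (log2 difference -0.56, SE 0.10, adjusted P = 0.00186). In MDA-MB-468 it read 192, 194, 199 and 195 CPM and 191, 178, 152 and 123 CPM, a difference of -0.29 that was not called (adjusted P = 0.181) and was -0.17 without diabetic tumor 4. Hs578T values were 83.2, 76.8, 94.04 and 75.2 CPM and 85.9, 71.4, 67.5 and 59.2 CPM, with overlap. EXO1, the excision nuclease, read 17.02, 18.3, 16.3 and 23.2 CPM in control and 9.81, 11.8, 16.3 and 13.1 CPM in diabetic MDA-MB-231 tumors (log2 difference -0.53, SE 0.16, adjusted P = 0.0251). It went from 22.3, 25.3, 23.6 and 23.5 CPM to 18.2, 14.9, 13.8 and 13.1 CPM in MDA-MB-468, where it had the smallest P value of the members (log2 difference -0.63, SE 0.12, adjusted P = 0.0234). Without diabetic tumor 4 that difference was -0.58, and the call held in 2 of 8 fits that left out 1 tumor. In Hs578T its levels were 18.4, 21.6, 13.9 and 13.05 CPM and 19.9, 23.5, 17.4 and 8.73 CPM. Diabetic tumors of the MDA-MB lines all lay below the controls for EXO1, narrowly so for tumor 3 of MDA-MB-231, and in Hs578T the hosts overlapped across most of their range.

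MSH3, the partner for longer loops, fell in MDA-MB-231 from 27.5 ± 4.65 to 19.9 ± 2.09 CPM (SD, n = 4; log2 difference -0.44, SE 0.14, adjusted P = 0.0288). Its means were 10.4 ± 1.502 and 10.5 ± 2.25 CPM in Hs578T and 17.5 ± 1.64 and 14.3 ± 1.42 CPM in MDA-MB-468. Without 1 tumor its MDA-MB-231 call was lost in 5 of 8 cases and that of EXO1 in 4 of 8. MLH3 averaged 7.404 ± 1.17 and 5.31 ± 0.958 CPM in MDA-MB-468, 10.7 ± 1.79 and 8.43 ± 1.41 CPM in MDA-MB-231, and 9.91 ± 1.15 and 8.94 ± 1.24 CPM in Hs578T. PMS1 averaged 28.9 ± 0.732 and 26.7 ± 3.599 CPM, 13.6 ± 0.860 and 11.3 ± 2.63 CPM, and 20.7 ± 5.13 and 19.5 ± 3.65 CPM in the same order. PMS2 averaged 37.8 ± 3.61 and 30.7 ± 5.15 CPM, 11.996 ± 0.859 and 11.7 ± 2.496 CPM, and 18.2 ± 2.94 and 17.7 ± 1.95 CPM, and is uncertain because near-identical pseudogene copies could share its reads. Without diabetic tumor 4 the MDA-MB-468 host differences of PMS1 and PMS2 went from -0.12 and -0.30 to -0.05 and -0.19. None of these MutL genes was called between hosts in any line. MSH6 shares 22.7% of its exon bases with an opposite-strand neighbor, and the strand setting of the counting is not given in the sources used here.

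All 3 enzymes of nucleotide supply fell in MDA-MB-231, beside 17% of all genes. RRM1, the large subunit of ribonucleotide reductase, went from 184 ± 10.6 to 110.3 ± 25.8 CPM (log2 difference -0.76, SE 0.14, adjusted P = 0.00156). RRM2, its small subunit, gave -0.49 and TYMS, which makes thymidylate, gave -0.64. TYMS shares 39.9% of its exon bases with an opposite-strand gene. In MDA-MB-468 the 3 differences were -0.62, -0.39 and -0.55, and in Hs578T -0.07, -0.15 and -0.16, none of which was called. Without diabetic tumor 4 all 3 passed in MDA-MB-468. RRM1 then gave -0.40 (adjusted P = 0.0277), RRM2 -0.35 (0.0360) and TYMS -0.40 (0.00776).

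Whether the host difference itself varied between lines was tested as an interaction. It passed for 2 members, POLE2 (adjusted P = 0.0271) and MCM2 (adjusted P = 0.0414), a smaller share than the 14.9% of all genes. ORC6 (adjusted P = 0.0526) and POLA1 (0.0622) followed without passing. For MCM2 the log2 differences were -0.78, -0.98 and -0.20 in MDA-MB-468, MDA-MB-231 and Hs578T, and for POLE2 0.00094, -0.01 and -0.71. Neither passed with the muscle sum as a covariate or after length and GC trends were removed. No member passed without Hs578T control tumor 1 or diabetic tumor 1, while 5 passed without Hs578T control tumor 3 and 6 without MDA-MB-468 diabetic tumor 4.

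Individual tumors varied around these group differences. As a median over the 50 members, control MDA-MB-231 tumors lay 0.08 to 0.25 above their line mean (log2), whereas diabetic tumors 1, 2 and 4 lay at -0.31, -0.24 and -0.17 and diabetic tumor 3 lay at 0.09, within the control range. That tumor also had the lowest mitochondrial share of its group, 1.96%, and leaving it out gave 27 called members. In MDA-MB-468 the control tumors lay at 0.09 to 0.17, and the diabetic tumors at 0.00, -0.06, -0.25 and -0.27. In Hs578T the control tumors split, with 0.20 and 0.25 for tumors 1 and 2 and -0.01 and -0.12 for tumors 3 and 4, and the diabetic tumors read -0.06, 0.12, -0.06 and -0.35. Diabetic tumor 4 of Hs578T had 1 of 50 members above its line mean.

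**Figure D4:**
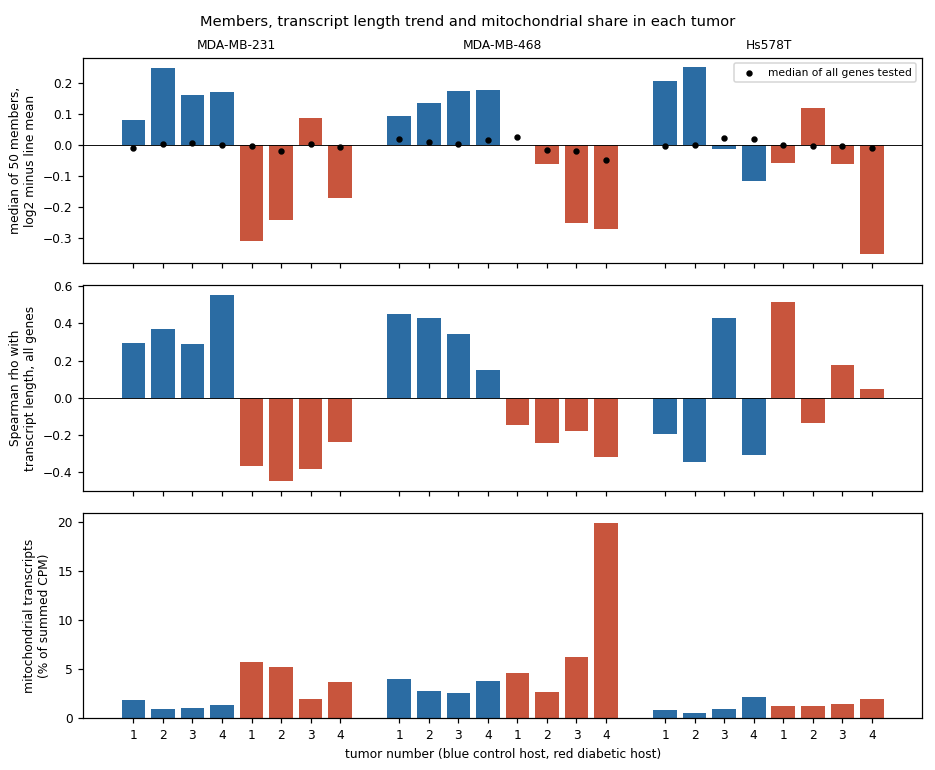
The median deviation of the 50 members from their line mean (log2) in each tumor, with the correlation of all genes' deviations with transcript length and the share of CPM on mitochondrial genes (percent), for control (blue) and diabetic (red) hosts. Diabetic tumor 3 of MDA-MB-231 lies within the control range of member medians, and diabetic tumor 4 of MDA-MB-468 has the highest mitochondrial share, 19.95%.

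The other genes of the replication pathway, from lists of related function, were counted in the same way, beside 17% of all genes lower and 16.1% higher in MDA-MB-231. Of 24 other origin and fork genes 7 fell and 2 rose in MDA-MB-231, led by TIMELESS of the fork protection complex (-0.82, adjusted P = 0.00102) and WDHD1, which couples polymerase alpha to the helicase (-0.66, 0.00312). Of 8 other nucleotide enzymes 4 fell, among them RRM2B, a damage-inducible reductase subunit (-0.72, adjusted P = 0.000883). Among 26 G1/S regulators 7 fell and 1 rose: the cyclin-dependent kinase inhibitor CDKN1A rose (0.71, 0.00192), and WEE1, a kinase that restrains mitotic entry, fell (-0.63, 0.00219). Of 8 replication-coupled chromatin genes DNMT1, the maintenance DNA methyltransferase, fell (-0.46, 0.00451) and UHRF1, which recruits it, rose (0.31, 0.0366). Of 9 mitotic proliferation markers, 2 fell and 2 rose, the latter being PTTG1 (0.57) and UBE2C (0.69). The log2 differences of these markers ran from -0.65 to 0.69, with 5 above 0 and 4 below.

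In MDA-MB-468, where 5.13% of all genes were lower and 3.11% higher, 3 of the 24 origin and fork genes fell, led by TIMELESS (-0.69, adjusted P = 0.0157) and CLSPN, the checkpoint adaptor claspin (-0.59, 0.0245). Among the 25 G1/S regulators tested 3 fell and 1 rose, and the leading genes were CDK6 (-0.96) and MYBL2 (-0.58), a transcription factor of proliferating cells. CTPS1, CTP synthase (-0.84), was the nucleotide enzyme that fell, DNMT1 (-0.54) and TONSL (-0.56) were the chromatin genes, and MKI67 (-0.81) was the proliferation marker. No gene of these 5 lists was called in Hs578T, where E2F2 (-0.63, adjusted P = 0.288) had the smallest P value of the G1/S list.

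The lines themselves were compared in control hosts, requiring an adjusted P under 0.05 and a difference of at least 1 on the log2 scale. In MDA-MB-468 relative to MDA-MB-231 POLA2, GINS2 and CDT1 were the most raised of 9 members that were higher, beside 18.1% of the 16823 genes tested, and 1 was lower, beside 15.7%, with a median log2 difference of 0.42 against 0.04 over all genes. Between Hs578T and MDA-MB-231, 3 members were higher in Hs578T (beside 15.6%) and 6 lower (beside 13.9%), with a median of -0.02. Relative to MDA-MB-468, 10 members were lower in Hs578T, beside 19.3%, and none was higher, beside 18.6%, with a median of -0.57. These counts are near or below what the shares of all genes would give for 50 genes. Without the minimum 41, 36 and 40 members differed in the 3 contrasts, where 73%, 68.2% and 75.6% of genes did. Pairs of these contrasts share a line, and line cannot be told apart from growth time.

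POLA2 set MDA-MB-231 apart, with 7.22, 5.99, 6.502 and 3.89 CPM in its control tumors against 40.2, 33.3, 24.6 and 28.6 CPM in Hs578T and 36.5, 38.95, 43.6 and 48.7 CPM in MDA-MB-468. The log2 differences from MDA-MB-231 were 2.66 (adjusted P = 1.65e-09) for MDA-MB-468 and 2.25 (1.66e-08) for Hs578T. GINS2 followed the same order, at 56.2, 53.1, 57.5 and 60.4 CPM in MDA-MB-468, 41.8, 51.9, 26.98 and 34.3 CPM in Hs578T and 12.7, 16.9, 14.6 and 13.7 CPM in MDA-MB-231 (differences from the last 1.91 and 1.33). The MDA-MB-231 values of both genes lay below all values of the other lines. POLE2 was the reverse, at 21.5, 25.8, 24.95 and 21.6 CPM in MDA-MB-231, and was lower in Hs578T (-1.58, adjusted P = 2.47e-08) and MDA-MB-468 (-1.40, 8.33e-08). RFC5, a clamp loader subunit, read 59.6, 64.7, 57.7 and 59.96 CPM in MDA-MB-231 and 21.9, 20.7, 17.8 and 17.05 CPM in Hs578T (-1.60, 1.93e-09).

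Between Hs578T and MDA-MB-468 the largest differences were in POLE and DNA2. POLE read 62.7, 58.4, 61.2 and 67.2 CPM in MDA-MB-468 and 18.4, 16.1, 18.5 and 17.7 CPM in Hs578T (-1.76, adjusted P = 9.29e-10). DNA2 read 17.4, 20.3, 20.2 and 18.4 CPM and 7.42, 9.75, 6.81 and 3.48 CPM (-1.42, adjusted P = 1.39e-05). The lines did not overlap for either gene. The other members lower in Hs578T were PCNA (-1.39), ORC1 (-1.31), CDT1 (-1.27), MSH6 (-1.24), PRIM1 (-1.23), LIG1 (-1.12), POLD1 (-1.03) and PMS2 (-1.02). Relative to MDA-MB-231, the other members higher in MDA-MB-468 were CDT1 (1.86), MCM6 (1.70), PMS2 (1.57), PCNA (1.46), POLE (1.42), ORC1 (1.08) and PMS1 (1.04), and in Hs578T relative to MDA-MB-231, RRM2 (1.11) was higher and MSH3 (-1.31), MCM10 (-1.22), CDC6 (-1.15) and DNA2 (-1.12) were lower.

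**Figure D5:**
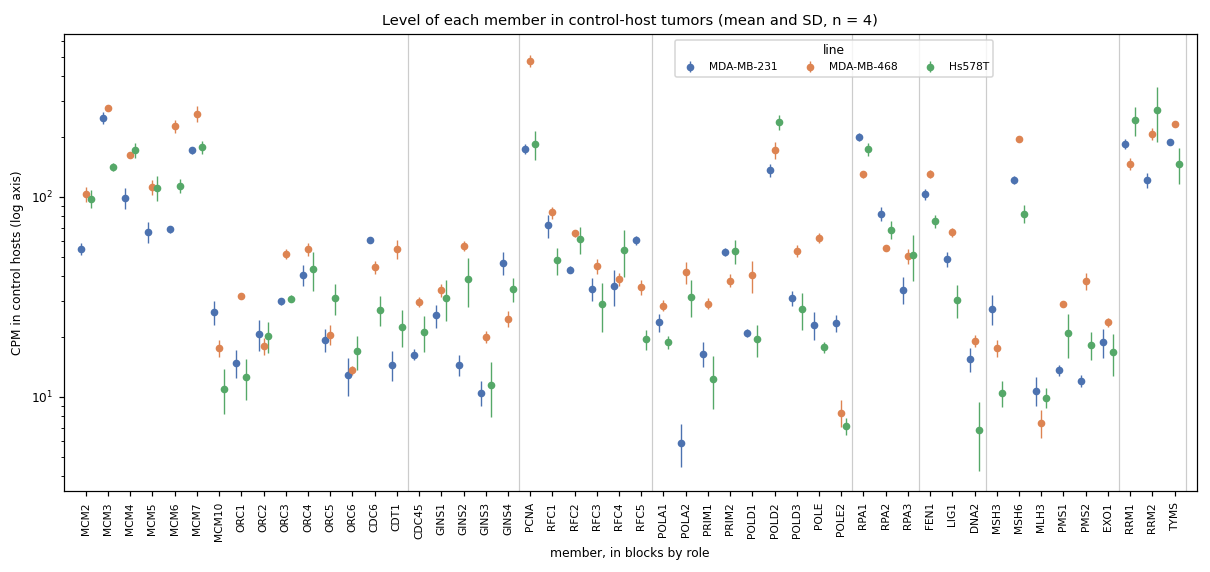
Level of each gene (CPM, log axis, not divided by length) in control-host tumors of the 3 lines, as the mean with its SD over 4 tumors, so that lines are to be compared within a gene. POLA2 and GINS2 are lowest in MDA-MB-231, and POLE2 is highest there.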

How the data were processed

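RNA of 24 xenograft tumors (3 lines, 2 hosts, 4 mice a group) was sequenced as stranded mRNA libraries. Per the study's methods reads were trimmed with Trimmomatic and aligned with Tophat to hg19 with Ensembl annotation, genes with at least 0.5 CPM in 2 or more samples were kept, and no separation of mouse from human reads was stated; the submitters' processing notes name hg38 and edgeR. The counting tool is not given in the sources used here. The deposited values are a normalized signal, CPM with TMM-adjusted library sizes made by the authors. Whole reads could not be recovered for all values, so count tests were not run. The deposited table held 17812 lines; 14 pseudoautosomal copies were left out. Each line held an empty cell that the 26 names of the header do not count.

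Differences were tested on log2(value + 1) with limma 3.58.1 (moderated variances with a trend) in R 4.3.3, for genes at 0.5 or more in at least 2 tumors of the fit, within each line, averaged over lines, as an interaction, and between lines in control hosts (12 tumors). P values were adjusted by Benjamini-Hochberg over all genes tested, and genes with an adjusted P under 0.05 were called. The scripts were tested on simulated data. Tables were handled in Python 3.11.15 with pandas 2.3.3, and transcript lengths came from GENCODE 44, matched for 17650 of 17798 genes. Promoters and motif shares came from RefSeq (GRCh38.p14).

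The members and lists were chosen with earlier results of these data known. Genes given in every tumor were, in each line, the pair with the smallest P in each direction, MSH6 and EXO1, those leading the interaction, the average and the line contrasts. Genes of other lists were the pair with the smallest P in their list. One result under this rule is not reported here. Other members were described after their values were seen. Depth was inferred from the spacing of low values, and the 3-read floor covers counting error only. Alternatives were another pseudocount, other filters, median-of-ratios scaling, unmoderated variances, removal of length and GC trends, a replicate block, a skeletal muscle covariate, one fit over 24 tumors and leaving out each tumor. A mitochondrial covariate was added after seeing the data.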

Additional observations from a re-analysis of the deposited data

Results flagged for a closer look

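Of 103 groups of 4 tumors examined with Dixon's test, 2 held a tumor far from the others, where chance would give about 5.15. PMS1 read 12.32 CPM in control tumor 1 of MDA-MB-231, where the other control tumors read 13.89 to 14.11 CPM. ORC6 read 12.6 CPM in control tumor 3 of MDA-MB-468, where the others read 13.85 to 13.89 CPM.

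The host difference varied between the lines for POLE2 (interaction adjusted P = 0.0271) and MCM2 (adjusted P = 0.0414) by limma. POLE2 was lower in every diabetic tumor of Hs578T and overlapped between hosts in the other lines, and MCM2 was lower in every diabetic tumor of the MDA-MB lines and overlapped in Hs578T.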

How the results depend on the processing

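Counts of called members kept within 1.5 times of the reported ones under another pseudocount, both other filters and median-of-ratios scaling in all 8 comparisons. In MDA-MB-231 (25 called) the count was 14 with unmoderated variances, 12 with the replicate block and length and GC trends removed, 0 with the mitochondrial share as a covariate and 15 to 27 without 1 tumor. In MDA-MB-468 (10) it was 4 with unmoderated variances, 4 with length and GC trends removed, 0 with the replicate block, 0 with the block and those trends removed, 1 with the muscle covariate, 16 in one fit over 24 tumors and 0 to 21 without 1 tumor. In Hs578T (0) it was 1 in that fit and 0 without any 1 tumor. The average over lines (29) gave 7 with the mitochondrial covariate and 24 to 32 without 1 tumor, and the interaction (2) gave 1 with unmoderated variances, 0 with length and GC trends removed, with or without the block, 0 with the muscle covariate and 0 to 6 without 1 tumor. Without a fold minimum the line contrasts gave 41, 36 and 40, and without 1 tumor 8 to 10, 8 to 9 and 8 to 12. The cause of these shifts was not tested. The mitochondrial share in MDA-MB-231 and the muscle sum in MDA-MB-468 and Hs578T did not overlap between hosts. Fits with those covariates could not separate them from host in these lines. Tumors that share a number did not deviate together in every pair of any line (mean correlations -0.003, -0.126 and 0.165 in MDA-MB-468, MDA-MB-231 and Hs578T; 0, 1 and 2 of 4 control tumors correlated best with their own number), so the block is given here as a count only, with 22 called in MDA-MB-231. Of 450 alternatives of 43 named results, 399 kept direction and call, 30 lost and 4 gained the call, and 17 turned direction. In MDA-MB-231, MLH3 and PMS2 turned to 0.0025 and 0.18 (log2) with length and GC trends removed, with or without the block, and MLH3, PMS1 and PMS2 to 0.21, 0.15 and 0.36 with the mitochondrial covariate, which gave 0.012 for PMS1 in MDA-MB-468. In Hs578T, MSH3 and EXO1 turned to 0.011 and 0.018 with median-of-ratios scaling, EXO1 to 0.023 with length and GC trends removed, PMS1 and EXO1 to 0.011 and 0.53 with the muscle covariate, and PMS1, PMS2 and EXO1 to 0.18, 0.0059 and 0.29 with the mitochondrial covariate. Without 1 tumor, PMS2 ranged from -0.15 to 0.028 in MDA-MB-231, and in Hs578T ORC3 from -0.012 to 0.071, MSH3 from -0.13 to 0.081, PMS1 from -0.26 to 0.057, PMS2 from -0.097 to 0.060 and EXO1 from -0.16 to 0.28. Depth did not limit the members, whose lowest value was 2.67 CPM, and 4 tumors a group limit the precision.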
